A study of Mus musculus with 5 samples.

Results

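Clone 20B is 1 of 5 clonal lines of mouse cardiac progenitor cells whose RNA was measured on Affymetrix expression arrays, and it was compared with the lines 1D, 11B, 30 and 42. The comparison took, for each probe set and each gene, the log2 value of 20B minus the median log2 value of the other 4 clones. Each line was measured on 1 array, so every difference below is a size with no replicate check and no test. Of 18193 genes with a probe set of their own, 9435 could be followed in this way, on 13953 probe sets.

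All 5 lines came from the left ventricle of mice aged 5 to 6 months, of a strain the labels write as C67BL/6, with no treatment or genetic change named for any of them. Cells were pulled out with an antibody to the surface protein Sca-1, expanded in culture, picked with cloning rings and subcloned by dilution, and the labels describe each line as c-kit+. Each line is thus 1 clone grown in culture, and line, culture and RNA preparation cannot be told apart. The deposited values were ratios with no unit stated. Some probe sets appear scaled to their own median, so that 1 clone stands at exactly 1. The others lay below 1 in most clones, a range called the floor here. Such ratios carry differences between clones and no expression level.

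Cardiac progenitor cells are small cells of the heart wall that carry stem cell surface proteins and can be grown as clones. They are studied for the growth factors they release and for their ability to take on features of endothelial, smooth muscle or cardiac muscle cells. Lines grown from single cells of 1 tissue can differ in which genes they use, and a comparison of 1 line with the rest shows where it departs from the others.

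The label could be checked only in part. Kit, which encodes the c-kit receptor of stem cell factor, had ratios of 1.002 in clone 1D, 1.00 in 11B, 1.183 in 20B, 0.991 in 30 and 0.997 in 42 on its measured probe set. Clone 20B was the highest, by 0.24 log2 units over the next clone, about the size of the spread of a single probe set (0.24 log2 units, below). The other 4 clones stood at a level that recurred on 31 other probe sets, so their closeness is no measurement. The other Kit probe set lay at the floor in every clone, at 0.614 in 20B. Pou5f1, which encodes the Oct-4 protein of pluripotent cells, was at the floor too, at 0.574, and Ly6a, the gene of Sca-1, had no probe set of its own. Markers of other cell types were compared where the ratios allowed it. None of 8 endothelial markers could be followed, and their highest ratio in 20B was 0.827. The 5 measured cardiomyocyte markers lay between -0.35 and 0.01 log2 units from the other clones. Fibroblast markers ranged from -0.75 to 0.13, and the 2 measured macrophage markers from -0.02 to 0.01. Of 8 mast cell and basophil markers 4 were measured, and Mcpt8, described below, was the highest of them at 1.53. The remaining measured markers of smooth muscle, mesothelial and glial cells lay between -0.31 and 0.02.

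Most genes of clone 20B lay close to the other clones. Over all measured genes the median difference was 0.00 log2 units, and 52.8% lay above the median of the others. The deposited values were already processed and many appear scaled to a median over the clones, so these 2 values are no measure of closeness. Clone 20B lay within 0.02 log2 units of at least 1 other clone on 52.2% of measured probe sets. A difference of 1 log2 unit, which is 2-fold, was reached upward by 49 of 9435 genes (0.519%) and downward by 17 of the 8645 genes with a median-scaled probe set (0.197%). At 0.6 log2 units there were 268 genes above (2.84%) and 116 below (1.34%), and at 2 log2 units, which is 4-fold, 5 above (0.053%) and 1 below (0.0116%). The 49 higher genes were not 49 genes particular to 20B: only in 35 of them was 20B the highest clone, and for 20 the nearest clone was 1D and for 16 it was 11B. They were at least 1 log2 unit above clones 30 and 42 in 44 cases each, but above 1D in 25 and above 11B in 31. The same order appeared in the 4 direct pairs, which share the 20B array: 59 genes were at least 1 log2 unit higher in 20B and 59 lower when it was set against 1D (0.625% each), 108 and 52 against 11B (1.14% and 0.551%), 242 and 146 against 30 (2.56% and 1.55%), and 161 and 122 against 42 (1.71% and 1.29%).

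The only repeat measure in these data is a gene measured by several probe sets. Over 3047 such genes the 20B difference varied between probe sets of a gene with a standard deviation of 0.34 log2 units, or 0.24 for a single probe set, and a median absolute difference of 0.13. Of 86 probe sets that lay at least 1 log2 unit above the others in such genes, 21 had a second probe set that did the same and 44 had one at 0.6 or more. Among 27 probe sets at least 1 log2 unit below, 9 had a second one and 12 had one at 0.6 or more.

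A total of 15 genes lay at least 1 log2 unit above every other clone in 20B (0.159%) and 3 below every other clone (0.0347% of the genes that could show it). At 0.6 log2 units 78 lay above every clone (0.827%) and 26 below (0.301%), and at 2 log2 units 2 lay above (0.0212%) and none below. Of these 18 genes, 12 rested on 1 measured probe set, and in 10 at least 3 of the other clones shared 1 level on a measured probe set. A gene whose other clones all lay at the floor counted as measured only if 20B exceeded 1 and so could only lie above; this held for 122 of the 9435 genes, 4 of the 49, 3 of the 15 and 20 of the 78.

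**Figure D1:**
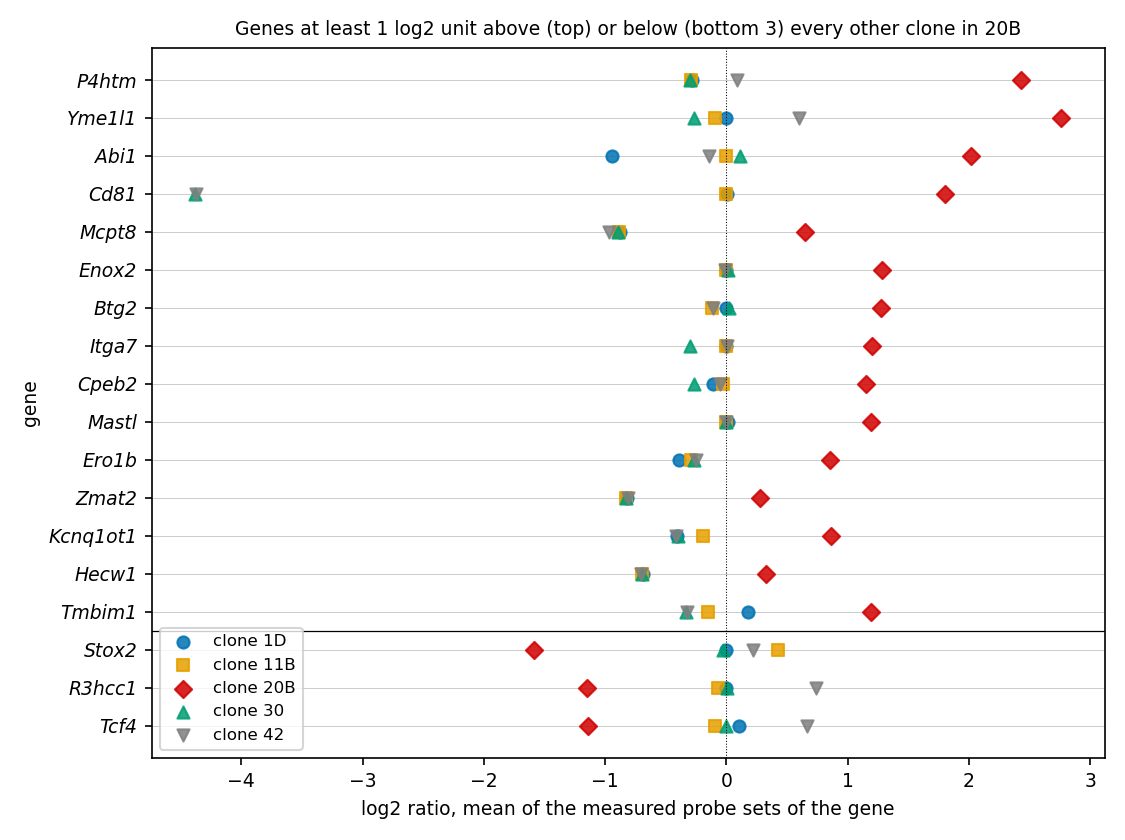
Log2 ratio, averaged over the measured probe sets of each gene (x axis), for the genes that lay at least 1 log2 unit above (upper block) or below (lowest 3) every other clone in 20B (y axis); each point is 1 clone on 1 array, with no error bar because there was no replicate. Clone 20B lies alone to the right for the 15 upper genes and alone to the left for Stox2, R3hcc1 and Tcf4, while Cd81 also separates clones 30 and 42, near -4.38, from 1D and 11B.

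The largest concentration of these genes lay in 1 stretch of mouse chromosome 2. In the RefSeq gene order of assembly GRCm38.p6, Abi1 is followed by Acbd5, Mastl and Yme1l1, and 3 of these 4 genes were among the 15. Abi1 encodes a subunit of the WAVE complex, which starts branched actin networks at the cell edge. Mastl encodes the Greatwall kinase, which holds back a phosphatase so that cells can enter mitosis, and Yme1l1 an ATP-driven protease of the inner mitochondrial membrane that processes the fusion protein Opa1. Because they stood high together, the 250 bases before their RefSeq transcript starts are shown, 5′ to 3′ on the strand of each gene. Capitals mark matches, on either strand, to 2 of 7 letter strings that were searched, CCAAT (the CCAAT box, ATTGG on the other strand) and GGGCGG (the GC box, CCGCCC on the other strand). Abi1 is on the minus strand at chr2:23040242-23040491, Mastl on the minus strand at chr2:23156025-23156274 and Yme1l1 on the plus strand at chr2:23156255-23156504.
Abi1: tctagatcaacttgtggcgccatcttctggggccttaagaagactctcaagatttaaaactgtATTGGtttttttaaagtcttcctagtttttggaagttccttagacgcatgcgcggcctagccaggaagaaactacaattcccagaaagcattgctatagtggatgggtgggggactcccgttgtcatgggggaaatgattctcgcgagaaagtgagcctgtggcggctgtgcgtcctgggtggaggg
Mastl: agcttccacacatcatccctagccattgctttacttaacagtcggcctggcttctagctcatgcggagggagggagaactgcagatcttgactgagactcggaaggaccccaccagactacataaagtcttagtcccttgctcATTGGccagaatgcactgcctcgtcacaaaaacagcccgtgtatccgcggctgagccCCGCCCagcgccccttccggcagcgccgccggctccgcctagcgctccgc
Yme1l1: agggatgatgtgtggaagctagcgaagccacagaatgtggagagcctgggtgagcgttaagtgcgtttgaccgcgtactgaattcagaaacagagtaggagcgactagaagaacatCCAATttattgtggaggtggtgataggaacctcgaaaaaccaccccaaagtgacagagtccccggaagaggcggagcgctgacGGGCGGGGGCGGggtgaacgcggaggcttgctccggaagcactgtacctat
Mastl and Yme1l1 start 481 bases apart and are read away from each other, so their windows overlap by 20 bases, and the first bases of both lines above are the same stretch read on opposite strands. The RefSeq table gives Abi1 a second start 45 bases downstream. A CCAAT string stood once in each of the 3 windows and in 33.9% of all 32851 RefSeq promoter windows of this length. The GC box string stood once before Mastl, 2 times before Yme1l1, directly after one another, not before Abi1, and in 32.7% of all windows. None of the windows held the strings TATAAA (12.4% of all windows), CACGTG (6.02%), CAGCTG (13.0%), TGACGTCA (1.55%) or CCGGAAGT (2.88%). GC content was 49.2% before Abi1, 59.6% before Mastl and 55.2% before Yme1l1, against a median of 52.4%, and CG pairs numbered 9, 16 and 16 against a median of 6.

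The 3 measured probe sets of Abi1 agreed. On 1423177_a_at the ratios were 0.466 in 1D, 1.00 in 11B, 4.037 in 20B, 0.991 in 30 and 1.005 in 42. On 1438506_s_at they were 0.408, 1.00, 3.224, 1.029 and 0.744, and on 1450890_a_at 0.746, 1.00, 5.115, 1.234 and 0.99 in the same order. Clone 20B was above every other clone by 1.65 log2 units or more on each, and 1D was the lowest on each. Their average put Abi1 2.09 log2 units from the median of the other clones. The fourth probe set was flat near the floor, at 0.875 to 0.883.

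For Yme1l1 and Mastl a single probe set carried the difference. Yme1l1 had ratios of 1.00, 0.935, 6.789, 0.832 and 1.516 on 1423361_at, so 20B was highest and 42 came next. Its other 3 probe sets were at the floor or flat in all clones, with 0.805, 0.598 and 0.991 in 20B. Mastl had 0.988, 1.00, 5.275, 0.991 and 1.005 on 1423524_at, where 3 of the other clones shared a level, but 0.995 in 20B on 1444725_at and 1.005 on 1423525_at, where no clone stood out. Acbd5, which encodes a peroxisomal tether to the endoplasmic reticulum and lies between Abi1 and Mastl, had 1.00, 0.983, 1.462, 0.995 and 1.004 on its measured probe set. Clone 20B was again highest, at a smaller size of 0.55 log2 units. Pdss1, before Abi1, and Potegl, after Yme1l1, bound this stretch in the RefSeq order. When every probe set was averaged, those at the floor included, Yme1l1 and Mastl no longer lay 1 log2 unit above every other clone, and Abi1 still did.

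**Figure D2:**
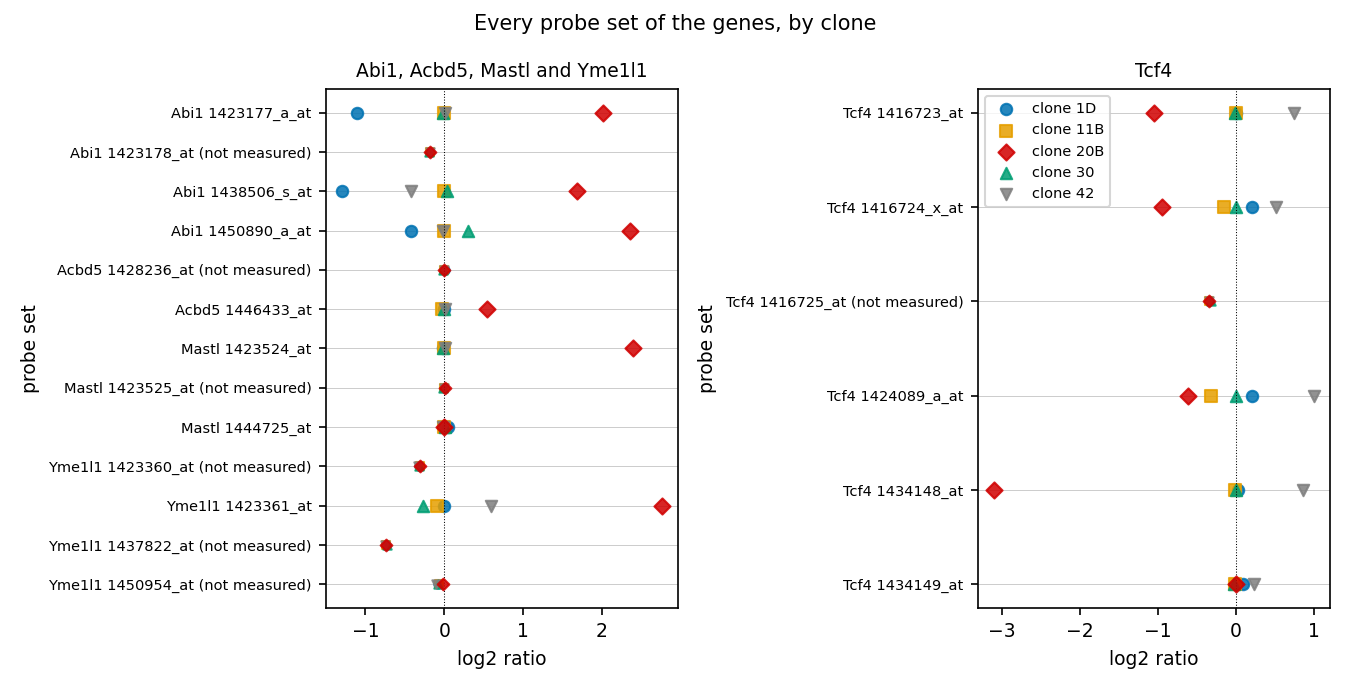
Log2 ratio (x axis) of every probe set (y axis) of Abi1, Acbd5, Mastl and Yme1l1 (left) and of Tcf4 (right) in the 5 clones, with smaller points for probe sets that did not count as measured. Clone 20B is the highest on the 3 measured Abi1 probe sets and on 1 probe set each of Yme1l1, Mastl and Acbd5, and it is lowest on 4 of the 5 measured Tcf4 probe sets but not on 1434149_at.

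Cd81, Itga7 and Tmbim1, which encode membrane proteins, were also among the 15. In the lists that hold Cd81 and Itga7, tetraspanins had 8 members above and 8 below with a median of 0.00, and integrin and focal adhesion genes 9 above and 7 below with a median of 0.08. Cd81, a tetraspanin that organizes membrane complexes, had ratios of 1.002 in 1D, 1.00 in 11B, 3.481 in 20B, 0.048 in 30 and 0.0482 in 42. Clone 20B was highest, 1.80 log2 units above 1D, while 30 and 42 stood far below all 3. The difference of 3.99 log2 units from the median of the others is therefore taken across a gap between those pairs of clones, and it was 1.80 without clone 30 or 42 and 6.17 without 1D or 11B. Itga7, the laminin-binding integrin of muscle cells, had 1.00, 0.998, 2.295, 0.814 and 1.004, with 20B highest and 1D, 11B and 42 at 1 level. Their values recurred on probe sets of other genes, so the closeness of these clones is no measurement and the size is uncertain. Tmbim1, which encodes a lysosomal membrane protein of the family of Bax inhibitor 1, had 1.133, 0.90, 2.288, 0.793 and 0.797, where 20B was highest and 1D next. L1cam, a neural adhesion molecule that was not among the 15, had 2.571 in 20B against 0.94 to 1.145 on 1450435_at. Its other probe set counted as measured only because 20B exceeded 1, at 1.131.

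P4htm, a prolyl hydroxylase of the endoplasmic reticulum that acts on hypoxia-inducible factors, had the largest gap to the next clone when probe sets were averaged by gene. Its ratios on 1459807_x_at were 0.822, 0.815, 5.402, 0.813 and 1.063, so 20B stood alone and 3 clones shared a floor level. Its other probe set was below the floor in every clone, with 0.631 in 20B against 0.512 to 0.566. Without probe sets marked for cross-hybridization P4htm could not be followed. Ero1b, an oxidase of disulfide bond formation in the endoplasmic reticulum, had 0.704, 0.63, 2.249, 0.70 and 0.707 on 1425705_a_at. On 1434714_at it had 0.83, 1.058, 1.458, 0.986 and 1.00. Clone 20B was highest on the second by 0.46 log2 units, and on the first the other 4 clones lay below 1, so the size there is uncertain.

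Btg2, Cpeb2 and Enox2 were also among them. Btg2, a target of p53 that restrains the cell cycle, had 1.00, 0.922, 2.418, 1.014 and 0.928 on 1416250_at. Clone 20B was highest by 1.25 log2 units there, while the second Btg2 probe set was flat at the floor, with 0.546 in 20B. Cpeb2, which binds messenger tails and controls their translation, was highest in 20B on all 3 probe sets. The ratios were 0.694, 1.483, 2.298, 0.99 and 1.00 on 1434272_at, 1.155, 0.577, 2.975, 1.00 and 0.927 on 1443017_at, and 1.00, 1.096, 1.593, 0.581 and 0.964 on 1458518_at. The next clone was 11B, 1D and 11B in turn. Enox2, an oxidase of the cell surface, had 1.00, 0.998, 2.439, 1.007 and 0.992 on 1427043_s_at, with 3 clones at a shared level. The values of 1D, 11B and 42 recurred on a probe set of another gene, so the size is uncertain for Enox2 too. Its other probe set was flat at the floor, with 0.652 in 20B, and without probe sets marked for cross-hybridization Enox2 could not be followed.

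For the remaining genes the other clones lay below 1 on the probe set that set 20B apart, so the sizes are uncertain, and Mcpt8, Zmat2 and Hecw1 counted as measured only because 20B exceeded 1. Mcpt8, a serine protease gene of basophils, had 0.544, 0.543, 1.564, 0.538 and 0.512. Clone 20B stood alone above a shared level of the rest. Of the other mast cell and basophil markers, Cma1, Cpa3, Tpsab1 and Fcer1a were at the floor in 20B, at 0.494, 0.774, 0.764 and 0.63, and Ms4a2 and Hdc differed by 0.01 and 0.00 log2 units. Mcpt2, a related protease gene, had 1.00, 0.998, 1.547, 1.013 and 0.995. A tryptase gene, Tpsb2, was higher in 1D (1.236) than in 20B (0.87). Zmat2, a splicing protein, had 1.214 in 20B against 0.562 to 0.57, and Hecw1, a ubiquitin ligase, 1.257 against 0.615 to 0.62. Other probe sets of both were flat, with 1.003 and 0.527 in 20B for Zmat2 and 0.508, 0.626 and 0.73 for Hecw1. Kcnq1ot1, a long noncoding RNA of an imprinted region, had 3.263 in 20B against 0.574 to 0.58 on 1459443_at but 1.014 on 1442029_at, where 11B was highest at 1.33. It lies 3 measured genes from Cd81 on chromosome 7, and the genes between them, Tssc4 and Trpm5, lay at 0.22 and 0.01 log2 units. Over the list of imprinted genes 8 of 15 measured members lay above and 7 below, with a median of 0.01. Mcpt8, Zmat2, Hecw1, Kcnq1ot1 and Ero1b no longer lay 1 log2 unit above every clone once values below the floor were raised to it.

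The 3 genes below every other clone differed in how well they were supported. Stox2, of the storkhead box family, had 1.00, 1.347, 0.334, 0.982 and 1.165 on its measured probe set, with 20B alone low, and its other probe sets lay at the floor or were flat. That probe set is marked for cross-hybridization. R3hcc1, a gene of an R3H domain protein, had 1.00, 0.953, 0.45, 1.003 and 1.674, with 20B lowest and 42 highest, on its only probe set. Tcf4, an E protein that pairs with other helix-loop-helix transcription factors, was measured on 5 probe sets. They gave 0.482, 0.518, 0.651, 0.117 and 1.00 in 20B, that is, from a difference of -3.11 log2 units on 1434148_at to -0.04 on 1434149_at. Clone 20B was lowest on 4 of them and 42 was highest on all 5. On average Tcf4 was -1.19 log2 units from the median of the others. In the list that holds Tcf4, E proteins and their inhibitors, 6 of 13 measured members lay above and 7, Tcf4 among them, below. The list as a whole did not share the difference of Tcf4, with a median of -0.01.

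Agreement between probe sets named further genes. In 26 of the 3047 genes with several probe sets (0.853%) every measured probe set lay at least 0.6 log2 units above the median of the others, and in 6 (0.197%) below. Hbegf, a heparin-binding growth factor of the EGF family, had 1.00, 1.267, 1.974, 0.989 and 0.96 on 1418349_at and 1.338, 1.00, 2.418, 0.862 and 0.863 on 1418350_at. Clone 20B was highest on both, by 0.64 and 0.85 log2 units. Hmgn3, a nucleosome-binding protein, had 1.002, 1.00, 1.669, 0.819 and 0.681 on 1431777_a_at, with 20B again highest. Serinc1, which helps place serine into membrane lipids, was highest in 20B on all 4 probe sets, at 1.562 to 1.787. Atp6v0b, a subunit of the proton pump of lysosomes, was highest in 20B on all 3, at 1.663 to 1.799, with 11B next.

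Other genes with agreeing probe sets were high in 20B together with another clone. Adm, which encodes the vessel-dilating peptide adrenomedullin, had 1.00, 2.649, 3.369, 0.281 and 0.319 on 1447839_x_at and 1.00, 1.948, 2.079, 0.749 and 0.666 on 1416077_at. Clones 20B and 11B were high on both and 30 and 42 were low. Ccnl2, a cyclin of splicing speckles, had 3.111, 0.528, 3.97, 0.605 and 1.00 on 1453740_a_at, so 1D stood near 20B there, but on 2 further probe sets 11B came next. Nupr1, a stress-induced chromatin protein, was higher in clone 30 (2.189) than in 20B (1.777) on 1419665_a_at, and its average difference of 1.35 was 0.62 without clone 11B or 42 and 2.09 without 1D or 30. Fubp1, Rala, Ss18, Hspb1 and Larp4b also had at least 0.6 log2 units on every measured probe set. Averaged over all its probe sets, those not measured included, Fubp1 was at 0.47. For Hspb1, a small heat shock protein, 1D lay near 20B, at 1.147 against 1.122 on 1422943_a_at. The average difference of Hspb1, 0.89, was 0.23 without clone 11B or 42 and 1.55 without 1D or 30, and that of Fubp1, 0.95, was 0.54 without clone 30 or 42.

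The 6 genes with agreeing probe sets on the low side were Gtf2f1, Usp2, Fbl, Ptms, Ddx18 and Ndufb7. Fbl, the methyltransferase fibrillarin of the nucleolus, had 1.00, 0.979, 0.515, 1.285 and 1.565 on 1416684_at and 1.00, 0.928, 0.619, 1.187 and 1.417 on 1416685_s_at. Clone 20B was lowest on both and 42 highest. Usp2, a deubiquitinase linked to the circadian clock, had 1.176, 0.699, 0.563, 3.72 and 1.00 on 1417168_a_at and 0.433 in 20B on 1417169_at, lowest on both. Ptms, parathymosin, had 0.613 and 0.61 in 20B on its measured probe sets, also the lowest. Ddx18, a helicase of ribosome assembly, was low in 1D as well, at 0.657 against 0.647 in 20B on 1416071_at. Ndufb7, a subunit of respiratory complex I, was as low in 42, at 0.623 against 0.624 in 20B on 1416417_a_at. Gtf2f1, a general factor of transcription, was not lowest in 20B throughout, since 11B had 0.51 and 20B 0.561 on 1417699_at.

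Some of the largest differences were shared with clone 1D, a group named after its values were seen. Lama5, a laminin chain of basement membranes, had 3.161, 1.00, 2.126, 0.116 and 0.151. Clones 1D and 20B were high and 30 and 42 low, so its difference of 2.45 log2 units was 1.09 without clone 30 or 42 and 3.82 without 1D or 11B. Rgs3, a brake on G protein signalling, had 2.725, 1.00, 2.903, 0.91 and 0.997, and Tbc1d23, a protein of endosome transport, 3.217, 1.00, 2.878, 0.991 and 0.996. In both, 1D and 20B formed a pair above the other 3 clones. Trim59, a ubiquitin ligase, had 2.088 in 20B, 13.67 in 1D and 0.696 to 0.713 elsewhere. Cd36, a fatty acid receptor, had 1.85, 1.00, 2.556, 0.991 and 0.739, and Me1, the cytosolic malic enzyme, 1.712, 1.00, 1.998, 0.51 and 0.684, both with 20B highest and 1D next. When every probe set was averaged, those at the floor included, the differences of Lama5, Rgs3, Tbc1d23, Trim59, Cd36 and Me1 were 0.82, 0.39, 0.50, 0.78, 0.44 and 0.64. On the low side Bmyc, a relative of Myc, had the largest difference, -2.01 log2 units, with 2.874, 0.663, 0.422, 1.00 and 2.923, and -1.24 without clone 1D or 42. Clone 20B was lowest, with 11B next.

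The pathway and cell type lists, 50 in all, showed small shifts of a whole list and larger differences of single members. They are given as counts and medians beside the values over all genes, 0.00 log2 units and 52.8% above. Many members lay within 0.1 log2 units of the median of the other clones, where a level shared between clones can set the sign. These were 14 of 24 ribosome assembly genes, 16 of 29 translation factors and 14 of 27 S phase genes. On the high side they were 11 of 22 lysosomal and 6 of 10 basement membrane genes. Cytosolic ribosomal proteins, the parts of the ribosome itself, were the lowest list with at least 10 measured members: 27 of 38 lay below and 11 above, with a median of -0.10. Rps19 at -0.56, Rps10 at -0.52 and Rps7 at -0.50 were the lowest members, and Rplp0, at 0.64 and at 0.39 without clone 11B or 30, was the only one past 0.6. Genes of ribosome assembly had a median of -0.06, with 20 of 24 below, among them Fbl at -0.98, Wdr74 at -0.55 and Nop2, an RNA methyltransferase, at -0.33. Translation factors also had a median of -0.06, with 20 of 29 below. Eif4a2, a helicase of translation initiation, was the exception at 1.10, with ratios of 1.00, 1.025, 1.522, 0.485 and 0.502, highest in 20B and low in 30 and 42, and it was 0.61 without clone 30 or 42.

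Proteasome subunits, which form the cell's main protein-degrading machine, lay below in 25 of 33 cases, with a median of -0.09. At 0.6 log2 units there were 4 below and 2 above, where the shares over all genes that could show it were 1.34% and 2.84%. Psmc5 at -0.69 and Psmc1 at -0.68, ATPases of the regulatory particle, were the lowest, and Psma4 at 1.08 and Psma2 at 0.71, which form rings of the core particle, the highest. On the Psmc5 probe set 20B had 0.625 against 0.776 to 1.504, and on that of Psma4 it had 1.26 against 1.591 in 1D and 0.354 to 1.00 in the others, so its difference was 0.33 without clone 30 or 42 and 1.82 without 1D or 11B. DNA replication and S phase genes had a median of -0.05, with 21 of 27 below. Ccne1, the cyclin of the entry into S phase, was the lowest at -1.07 with 1.20, 0.671, 0.508, 1.135 and 1.00, where 20B was lowest and 11B next. Mitosis genes had 15 of 23 below and a median of -0.03, with none past 0.6.

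Homeobox genes, which encode transcription factors of positional identity, had a median of -0.09, with 17 of 23 below. At 0.6 log2 units 4 lay below and none above, where the shares over all genes that could show it were 1.34% and 2.84%. Dlx2 had 1.603, 1.924, 0.441, 0.115 and 1.00, and Prrx2 1.843, 1.443, 0.571, 0.158 and 1.00. Both were lowest in clone 30, with 20B next. Meis2, a cofactor of Hox proteins, was lowest in 20B on 3 probe sets, at 0.763, 0.478 and 0.425. Dlx1 was also lowest in 20B, at 0.621 against 0.991 to 1.467. In the homeobox list 1 gene counted only through 20B, and without it 5 of 22 members lay above, with a median of -0.10.

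Among the lists on the high side, glutathione and NRF2 target genes, which guard against oxidants, had a median of 0.14 with 15 of 18 above. Me1 at 1.27 and Nqo1 at 0.75, a quinone reductase, were past 0.6, as were 2.84% of all genes. On the Nqo1 probe set 20B had 1.182, next to 1D (1.082) and 11B (1.00), while 30 and 42 had 0.275 and 0.497, and its difference was 0.24 without clone 30 or 42 and 1.25 without 1D or 11B. Prolyl hydroxylases and oxygen sensing genes also had a median of 0.14, with 14 of 17 above. Apart from P4htm, P3h2, a collagen prolyl hydroxylase, was at 0.98 with 1.117, 1.00, 1.958, 0.991 and 0.562, highest in 20B. Plod2, a collagen lysyl hydroxylase, was at 0.65 and was higher in 42 (2.115) than in 20B (1.536). Lysosomal hydrolases and proton pump genes lay above in 18 of 22 cases, with a median of 0.06, led by Atp6v1a at 0.80, Ctsd at 0.57 and Ctsa at 0.55.

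Actin assembly regulators had a median of 0.10, with 14 of 23 above and 4 at least 0.6 above, where 2.84% of all genes were. Beside Abi1 these were Arpc5 at 0.95, a subunit of the Arp2/3 complex, Cdc42 at 0.83, a GTPase of cell polarity, and Diaph2 at 0.65, a formin. For Cdc42 the highest value was in 20B on all 3 probe sets, at 2.669, 1.357 and 1.235, the last level with 11B at 1.224. Arpc5 counted as measured only because 20B exceeded 1, at 1.275, and its other probe set was flat at 0.996. Without Arpc5 13 of 22 members lay above, 3 of them by 0.6, with a median of 0.08. Collagens and matrix genes had 14 of 20 above and a median of 0.09, and basement membrane genes 9 of 10 above and a median of 0.04. In each of these lists 1 gene counted only through 20B, and without it they had 13 of 19 and 8 of 9 above, with medians of 0.05 and 0.04.

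Lists that bear on the progenitor label and on growth signals held a few single genes. Of 16 progenitor and stem cell markers 5 were measured, with Alcam, an adhesion molecule, at 0.65, Bmi1, a Polycomb gene of self-renewal, at 0.35 and Kit at 0.24. Bmi1 lay at 0.01 and 0.69 on its 2 probe sets, and 11B was above 20B on their average. For Alcam 20B was highest on 3 of 4 probe sets, at 1.731, 2.16 and 1.617, and it was lowest on the fourth, at 0.975 against 0.98 to 1.018. Kitl, the ligand of c-kit, lay at 0.78 on average and at 0.43 without clone 11B or 30, but its probe sets ran from 0.05 to 1.58 and 1D (1.509) was above 20B (1.425) on the highest. Pdgfra, a receptor of platelet-derived growth factor, was at -0.75, carried by 1421917_at alone, with 0.358, 1.00, 0.304, 1.633 and 2.211, where 1D was nearly as low. In the axis of SDF-1, the chemokine made from Cxcl12, 20B stood in the middle: Cxcl12 was at -0.02, its scavenging receptor Ackr3 at 0.01, and the receptor gene Cxcr4 at the floor, at 0.779. Mef2c, a factor of heart muscle genes, was at 0.68, with 1D above 20B on its 2 leading probe sets.

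**Figure D3:**
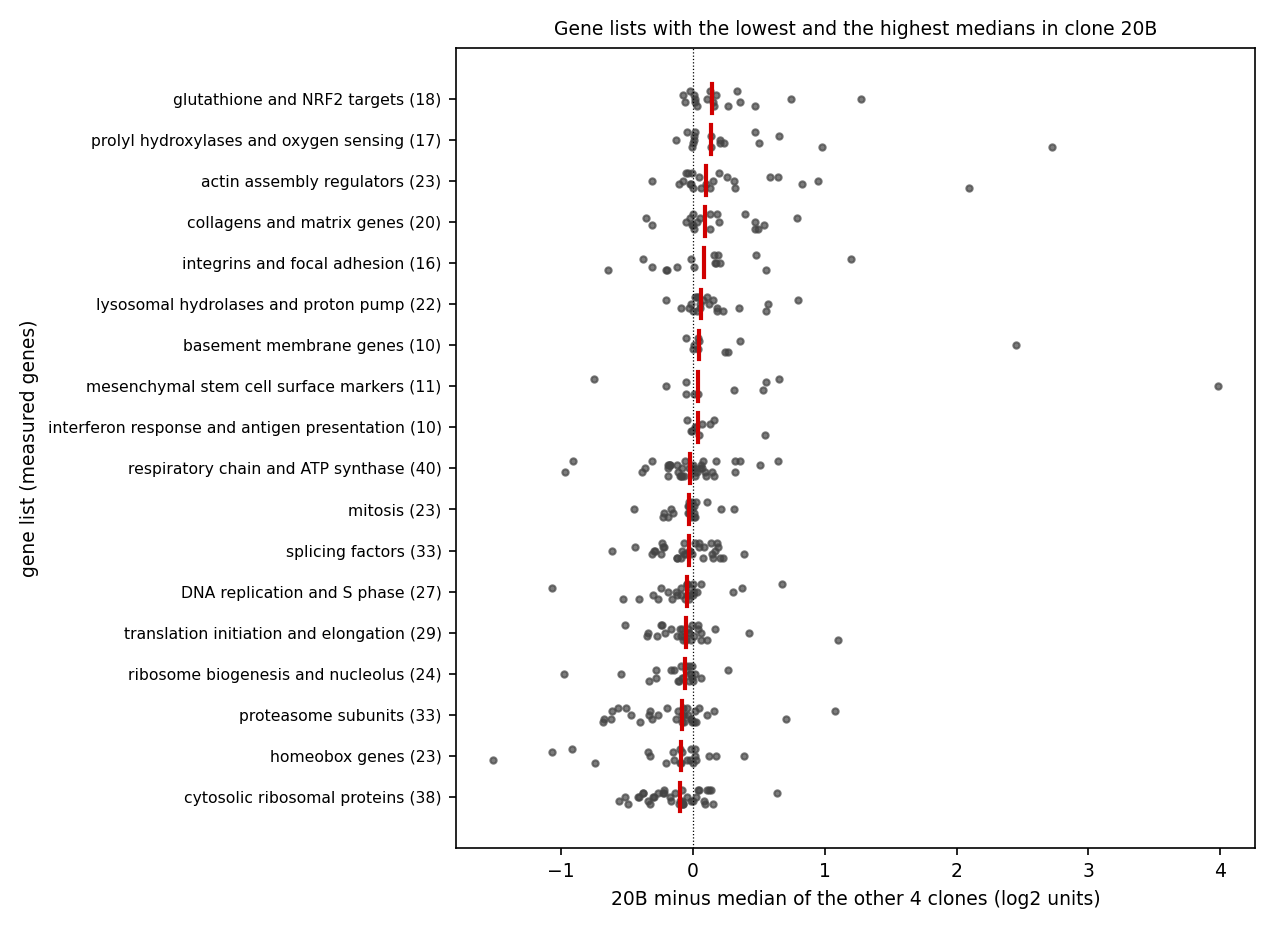
Difference between 20B and the median of the other 4 clones in log2 units (x axis) for each measured gene (points) of the 9 lists with the lowest and the 9 with the highest medians among lists of at least 10 measured genes (y axis, with the number measured), with list medians as red bars and the median of all genes as the dotted line. Medians run only from -0.10 for cytosolic ribosomal proteins to 0.14 for glutathione and NRF2 targets, while single genes such as Cd81 (3.99) and P4htm lie far outside.

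The RNA controls give the quality of the 20B array beside these list values. Its 18S control ratios were 1.22 to 1.27, against 0.411 to 1.569 in the other clones, and the highest of all at the middle and 3′ positions. Its Gapdh control ratios, 0.887 to 0.918, were the lowest of all clones at every position. Its Actb ratio of 5′ to 3′ signal lay between the others: relative to 20B it was 1.08 in 1D, 0.597 in 11B, 0.743 in 30 and 1.08 in 42. The 18 hybridization controls differed from the other clones by a median of 0.02 log2 units (-0.15 to 0.14) and the 24 poly-A spike probe sets by 0.11 (-0.13 to 0.65). Their part in the list values, which are of the same size as these, was not tested.

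Position along the chromosomes was a further feature that the comparison did not use. Genes at least 0.3 log2 units above the median of the others made up 9.84% of all measured genes, but 20.5% of the 586 on chromosome 4, 17.3% of the 313 on chromosome 16 and 14.7% of the 333 on chromosome 19. Chromosome 6 had the smallest share, 3.93%. Genes at least 0.3 below made up 5.59% of all and 10.3% of those on chromosome 13, the largest share. On chromosome 4 the share at least 0.3 log2 units above a single clone was 15.9% for 1D, 19.5% for 11B, 34.5% for 30 and 21.7% for 42, against 10.3%, 13.3%, 17.0% and 13.4% over all genes, so 20B exceeded each of the 4 there more often than over all genes. The same held on chromosomes 18, 19 and X, on X by little against 1D (11.3%) and 30 (17.4%). On chromosome 16 the share was 9.90% against 1D, no more than over all genes, but 24.9% against 30 and 25.2% against 42.

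**Figure D4:**
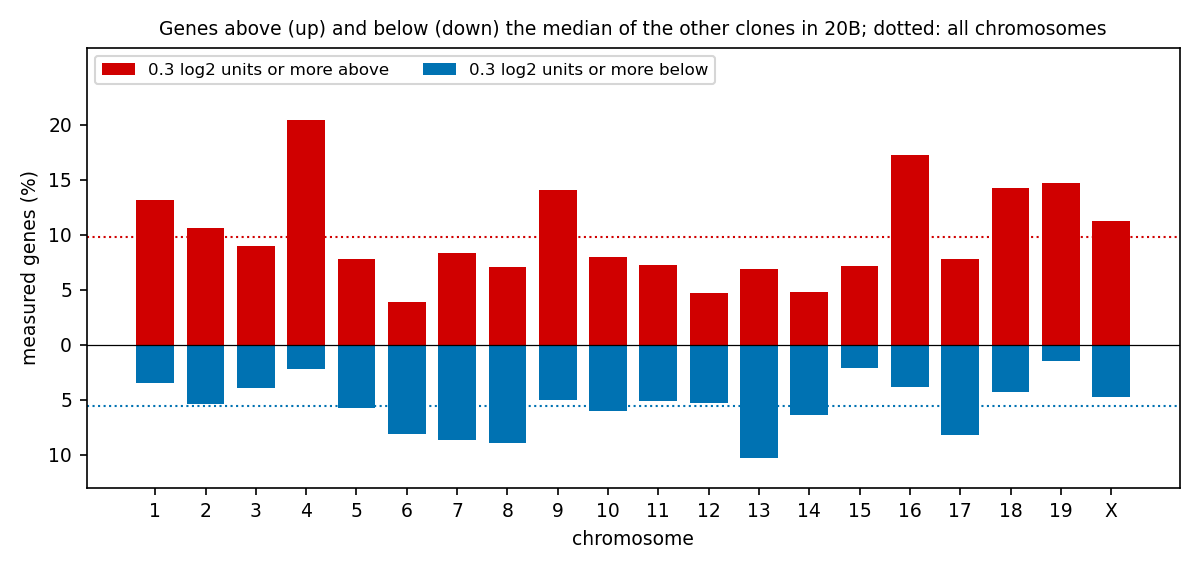
Percent of the measured genes of each chromosome (x axis) at least 0.3 log2 units above (red, upward) or below (blue, downward) the median of the other clones in 20B; dotted lines mark the shares over all chromosomes, 9.84% above and 5.59% below. Chromosome 4 has the tallest upward bar, at 20.5%, and chromosome 13 the longest downward bar, at 10.3%.

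A running median over 11 neighbouring measured genes passed 0.3 log2 units in 16 stretches, which held 273 genes (2.90% of those measured), and was below -0.3 in 1 stretch of 20 genes. The window and its size were set after the values were seen. The stretches were picked by the same 20B differences, so their high or low medians follow from that choice. In those from Pnpla2 to Ctsd on chromosome 7 and Dtna to Pik3c3 on chromosome 18, 20B lay below 1D, with medians of -0.03 and -0.18. In that from Zbtb11 to Riox2 on chromosome 16 it lay below 11B, with a median of -0.02. In 2 stretches 20B exceeded each of the other clones by a median of at least 0.2 log2 units. The first ran over 28 genes of chromosome 13 from Pitrm1 to Yae1d1, with a median of 0.58 from the median of the others and 0.22 over 1D, 0.23 over 11B, 0.42 over 30 and 0.35 over 42. It held Ero1b, Hecw1 and Larp4b (1.21), an RNA-binding protein, beside Tbce (0.91), a tubulin folding cofactor, Ggps1 (0.90), a synthase of lipid anchors, Rala (0.93), a Ras-like GTPase, Mrpl32 (0.62) and Psma2 (0.71), while Gli3, Inhba and Mtr in it lay at 0.01, 0.00 and -0.01. Clone 20B was not highest for each gene: Larp4b had 2.717 in 11B and 1.999 in 20B on 1434597_at, and Rala 1.847 in 42 and 1.558 in 20B on 1423137_at. The difference of Rala was 0.37 without clone 1D or 11B and 1.49 without 30 or 42. Hecw1 in this stretch counted as measured only because 20B exceeded 1, so it could only lie above. Such genes were kept in the medians of the stretches and in the chromosome shares.

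The second of these stretches ran over 21 genes of chromosome 4 from Hes5 to Sdf4, with a median of 0.57, and 0.25 over 1D, 0.25 over 11B, 0.65 over 30 and 0.61 over 42. Ccnl2 (1.54), Dvl1 (1.17), a relay of Wnt signals, and Nadk (0.94), which makes NADP, were its highest genes. For Dvl1 the ratios were 1.00, 1.55, 2.164, 0.926 and 0.706, highest in 20B, with 11B next. A longer stretch of 35 genes on chromosome 1 from Mreg to Chpf held Tmbim1, with Bcs1l (0.88), Pnkd (0.80), Tns1 (0.76) and Plcd4 (0.73) near it. Its median was 0.36, but 20B lay only 0.05 above 11B there, against 0.63 above 30 and 0.46 above 42. The single low stretch ran from Safb2 to Pdzph1 on chromosome 17 with a median of -0.30, and held Gtf2f1 at -1.21, Trip10 at -1.16, a linker of Cdc42 to actin, and Lonp1 at -0.69, a protease of the mitochondrial matrix. In it 20B was 0.58 log2 units below 30 and 0.56 below 42 but only 0.08 below 1D and 0.05 below 11B. Without clone 30 or 42 Lonp1 was at -0.36. Abi1, Mastl and Yme1l1 lay in none of the 16 stretches. Of the 10 measured neighbours of Abi1, 7 lay above the median of the others, Mastl and Yme1l1 by more than 0.6 log2 units and Arhgap21 and Acbd5 by 0.57 and 0.55, with 20B the highest clone in all 4.

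**Figure D5:**
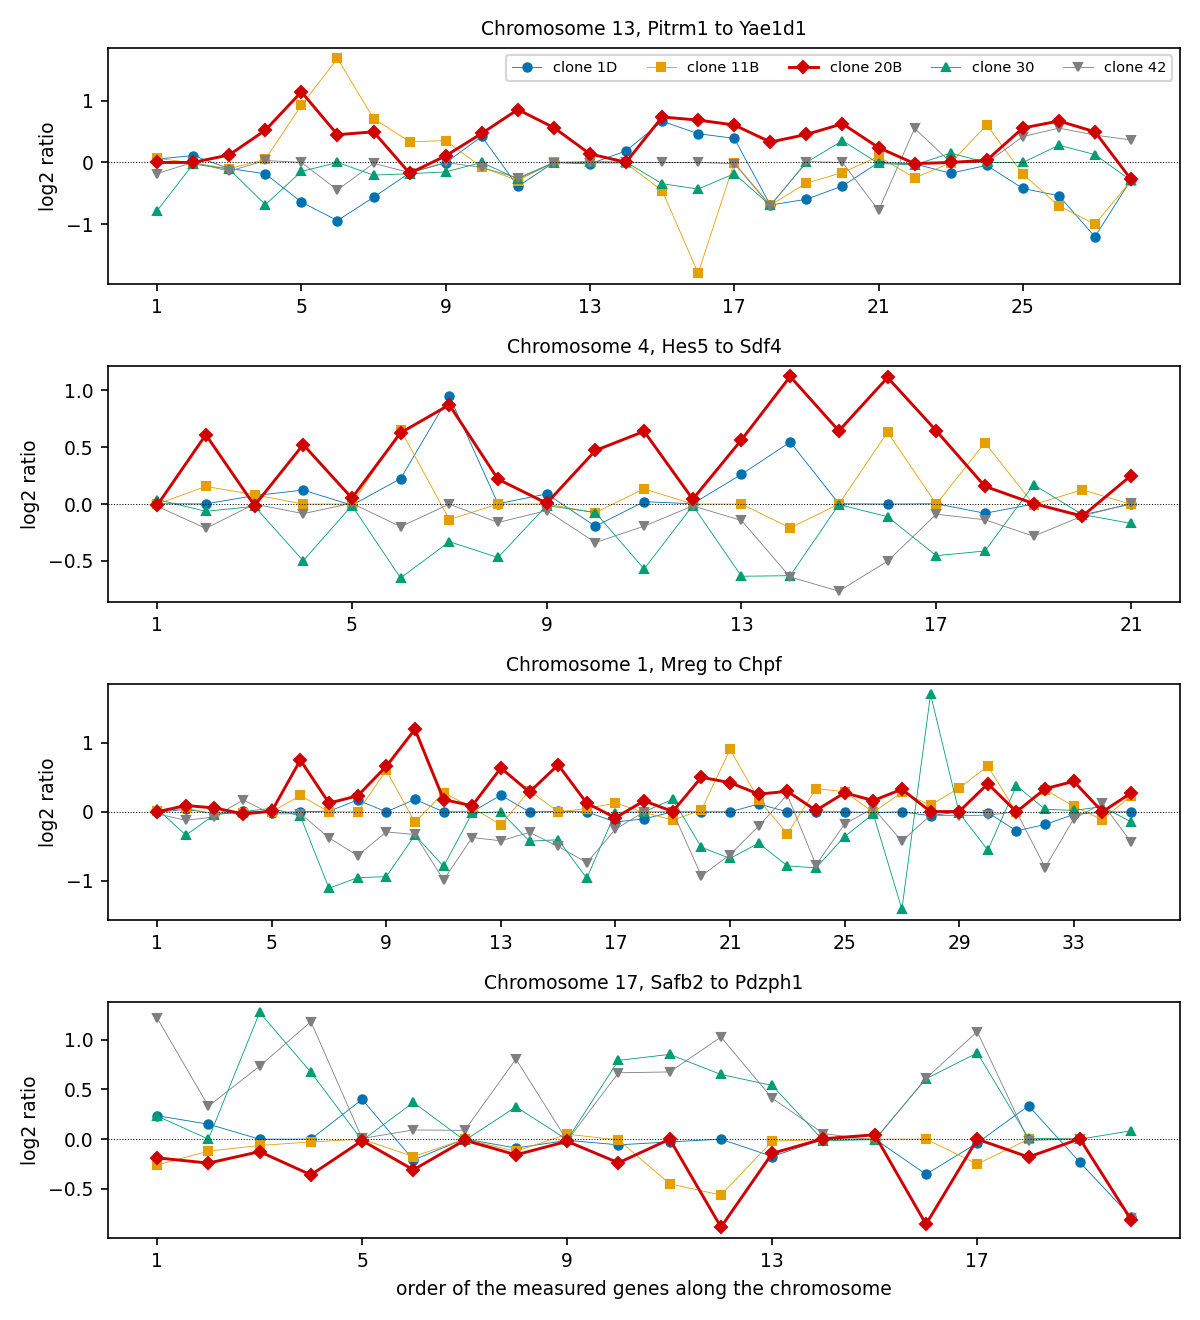
Log2 ratio (y axis) of the measured genes in order along the chromosome (x axis, gene number within the stretch) for 3 stretches in which the running median of 20B lay above the others and the 1 in which it lay below; each line is 1 clone and the red line is 20B. Clone 20B is the highest clone at many but not all genes of the chromosome 13 and chromosome 4 stretches, runs close to 11B in that of chromosome 1, and near 1D and 11B below clones 30 and 42 in that of chromosome 17.

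Probe sets without a single gene symbol held few further differences. Of 2254 that were measured, 3 lay at least 1 log2 unit above every other clone (0.133%), against 34 of 13953 with a symbol (0.244%). The largest was 1431893_a_at, with 0.669, 1.217, 5.296, 0.901 and 1.00 in 1D, 11B, 20B, 30 and 42, so 20B stood alone 2.12 log2 units above the next clone. No gene is named for it here.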

How the data were processed

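Total RNA of 5 clones was measured on Affymetrix arrays, 1 per clone, each clone its own group. The submitters' processing notes name RMA and GCRMA but no version, and do not say which was used for what. Ratios for 45101 probe sets make up the deposited table. Its unit and the authors' division by a median or floor are read from the values and stated in no label: the median over clones was exactly 1 for 18926 probe sets, below 1 for 26175 and never above 1. The number of arrays limits the precision.

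Ratios were put on the log2 scale, with 34958 probe sets named by a single symbol of the supplied annotation, and 932 with several symbols and 64 control probe sets left out of gene values. To be measured, a probe set needed a median of 1 or a clone above 1, and a range over 0.05 log2 units. Measured probe sets of a gene were averaged, and the median of the other 4 clones was subtracted from 20B. A gene counted as below only with an own-median probe set. Clones within 0.02 log2 units of one another are called level, and 20B was level with at least 3 others on 14.4% of measured probe sets. Genes at 1, 0.6 or 2 log2 units were counted, with no test. Gene order (9422 genes matched) and promoters come from RefSeq, GRCm38.p6. Python 3.11.15, numpy 2.4.6, pandas 2.3.3 and matplotlib 3.10.9 were used, and the counting was checked on simulated ratios. The simulated ratios had no floor and no shared levels, so the rules for these were not checked.

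Named genes were Kit, Ly6a, Pou5f1, Cxcl12, Cxcr4 and Ackr3, every gene 1 log2 unit from all 4 clones, up to 15 per direction whose measured probe sets all reached 0.6, up to 4 members per described list, and near neighbours of the set-apart genes. Genes named beyond it, in the stretches, the group shared with 1D, Acbd5, Bmyc and Mcpt2 among them, were chosen after their values were seen. Members and lists were chosen with earlier results of these data known. Alternatives varied the probe sets averaged, the floor, the normalization, the flat filter, the size and the clones in the reference.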

Additional observations from a re-analysis of the deposited data

How the results depend on the processing

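The counts are given in the order above the median of the others, below it, above every clone and below every clone (49, 17, 15 and 3 in the report), then genes apart from 1D, 11B, 30 and 42 in either direction (118, 160, 388 and 283). With every probe set averaged they were 19, 10, 7 and 1, then 66, 75, 213 and 163. At 0.6 log2 units they were 268, 116, 78 and 26, then 604, 728, 1189 and 1007, and at 2 log2 units 5, 1, 2 and 0, then 12, 19, 32 and 25. Taking 1 probe set per gene, by highest mean ratio, 90 genes lay above the median, 26 above every clone, 208 were apart from 1D and 255 from 11B. Quantile normalization gave 86 above the median and 29 above every clone. Leaving out clone 1D gave 90 above the median, 29 below it and 24 above every clone, leaving out 11B gave 30 below the median and 5 below every clone, and leaving out 30 gave 5 below every clone.

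Of the 18 genes set apart, 8 remained with every probe set averaged, 11 with own-median probe sets only, 13 with values raised to the floor, 14 with the highest-mean probe set, 15 without cross-hybridizing probe sets and 15 with flat probe sets kept. All 18 remained under quantile normalization and centring of the arrays. Another reference or the omission of another clone cannot remove them. Signs turned for Sarnp (1.30, but -0.31 without 1D or without 42), Tgfa (1.33, but -0.054 without 11B or without 30) and Cdh13 (-1.15, but 0.050 without 30 or without 42). In each the median was taken across a gap between pairs of the other clones, and 20B lay within their range. For Sarnp, 1D and 42 stood at -2.92 and -3.06 log2 units and 11B and 30 at 0.32 and 1.17. Why the clones differed there was not tested. The list medians of cytosolic ribosomal proteins (-0.15 to -0.07), proteasome subunits (-0.12 to -0.06), homeobox genes (-0.16 to -0.01), NRF2 targets (0.01 to 0.21), prolyl hydroxylases (0.05 to 0.18) and lysosomal genes (0.05 to 0.09) kept their sign in all 13 alternatives. No paired analysis was possible because each clone has 1 array and the clones share only the number 1.

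With 1 array per clone, line, culture and RNA preparation cannot be told apart. Levels below the floor cannot be ranked, and 20B was level with at least 1 other clone on 52.2% of measured probe sets.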
